A study of Mus musculus with 10 samples.

Results

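The ERα binding sites of Greb1 were examined in 2 regions of the mouse hypothalamus, the arcuate and the AVPV nucleus. Every ChIP-seq peak that overlapped the Greb1 gene body or the 100 kb on either side of it was taken, which is chr12:16570615-16900886 of mm10. The 8 peak lists held 23 such peaks of 25982 in all, and peaks sharing at least 1 bp merged into 6 regions of 8072. Of the 6 regions, 2 had a peak in all 8 libraries, 1 had a peak in all 4 arcuate libraries and in 0 AVPV libraries, and 3 had a peak in 1 library only. Over all merged regions, 13.5% had a peak in all 8 libraries, 2.13% in 4 arcuate and 0 AVPV libraries, and 41.5% in 1 library only.

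Chromatin came from female C57BL/6 mice that had been ovariectomised and given a 2 cm implant of 17β-estradiol (0.1 mg/mL in sesame oil), followed a week later by estradiol benzoate (0.05 mg/kg). Tissue was collected 28 h after that injection. Both nuclei received this treatment, and no untreated group was analysed here, so no value below is a response to estrogen. There were 4 ERα libraries of the arcuate nucleus and 4 of the AVPV, made from pooled chromatin. Whether each library had a pool of its own is not stated, so every SD and p-value is over libraries and not over animals. Each nucleus also had a pooled input sample. No peak list of an input was available, so the background behind the lists was not examined. The tissue held many cell types, and fewer cells with bound receptor cannot be told apart from less binding per cell. The lists held 3251 to 4079 peaks for the arcuate and 2367 to 3347 for the AVPV.

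Greb1 encodes a chromatin-bound protein that was found as an early estrogen-induced gene in breast cancer cells, where it also acts as a cofactor of ERα. ERα is a nuclear receptor that binds as a dimer to estrogen response elements, palindromes of a pair of half-sites separated by a short spacer. Many such elements lie in introns and intergenic DNA far from start sites, and a gene can have several of them. Greb1 is often used as a positive control for ERα binding.

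Greb1 is transcribed from the minus strand. Its longer curated RefSeq model has 35 exons and starts at 16800886, and the shorter has 33 exons and starts at 16757239, which is 43.647 kb further downstream. Positions below are given as the distance of a region's median summit downstream of the upstream start. The 3 recurrent regions lay 40.368, 36 and 10.293 kb downstream and are called the 40-kb, 36-kb and 10-kb sites. All 3 were in intron 1 of the longer model and upstream of the shorter model, 3.279, 7.647 and 33.354 kb from its start. No exon of the 21 RefSeq models of Greb1 covered the median summit of these 3 recurrent sites. The 3 regions of a single library are named in the same way, as the 48.1-kb, 47.7-kb and 36.6-kb regions.

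The sequence around the median summit of each recurrent site is shown because all 3 held a palindromic element close to the summit. Each run is 151 bases of the plus strand of GRCm38.p6, and capitals mark the 12 fixed positions of the element, mismatched bases included. The 40-kb site is shown at chr12:16760443-16760593, the 36-kb site at chr12:16764811-16764961 and the 10-kb site at chr12:16790518-16790668.
40-kb site: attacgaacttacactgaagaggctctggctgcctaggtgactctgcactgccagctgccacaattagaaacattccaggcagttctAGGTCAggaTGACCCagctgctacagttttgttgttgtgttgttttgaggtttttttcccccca
36-kb site: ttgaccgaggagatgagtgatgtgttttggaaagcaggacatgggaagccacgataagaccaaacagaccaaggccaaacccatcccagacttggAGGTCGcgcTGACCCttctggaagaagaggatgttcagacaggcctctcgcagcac
10-kb site: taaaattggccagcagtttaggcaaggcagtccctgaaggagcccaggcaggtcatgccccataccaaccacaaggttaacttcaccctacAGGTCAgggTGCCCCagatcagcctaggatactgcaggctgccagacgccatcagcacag

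The element searched was AGGTCANNNTGACCT, with at most 2 mismatches among its 12 fixed bases and within 100 bp of the median summit. The palindrome reads the same on both strands, so each match was counted once. Below, capitals mark only the bases that match, and positions count from 1 at the left end of each element.
40-kb site element: AGGTCAggaTGACCc
36-kb site element: AGGTCgcgcTGACCc
10-kb site element: AGGTCAgggTGcCCc

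The element of the 40-kb site, at 16760530 to 16760544, had 1 mismatch, T15C. The element of the 36-kb site, at 16764906 to 16764920, had A6G and T15C, so each of its half-sites was broken once. The element of the 10-kb site, at 16790609 to 16790623, had A12C and T15C, both in the right half-site. The change at the last base was thus shared by all 3 elements, and the strongest site had the element with the fewest mismatches. The 36-kb element also held 2 CpG dinucleotides and the other 2 elements held 0. In the 151 bases shown, there were 5 CpG at the 36-kb site, 1 at the 40-kb site and 1 at the 10-kb site. The 48.1-kb region, listed in 1 arcuate library, also held 5 in the same length. CpG content over all regions was not counted.

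The summits of single libraries lay close to these elements. At the 40-kb site the 8 summits were 9 to 30 bp from the element's centre, at the 36-kb site 4 to 55 bp, and at the 10-kb site the 4 arcuate summits were 8 to 38 bp away. No element with at most 2 mismatches was found at the other 3 regions. For comparison, 28.7% of all 8072 merged regions and 33.3% of the 1089 regions with a peak in all 8 libraries held such an element in a window of the same length. With at most 1 mismatch these shares were 11.8% and 17.1%.

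**Figure D1:**
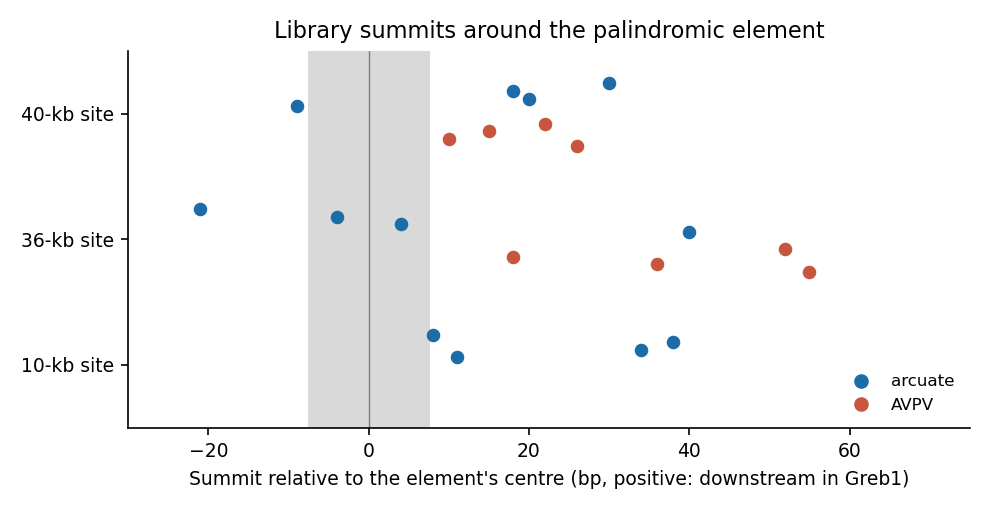
Distance of each library's summit from the centre of the element (bp, positive values downstream in the direction of Greb1 transcription) at the 3 recurrent sites, with 1 point per library and the grey band covering the element. The 40-kb summits lie within 30 bp of the centre. The AVPV summits of the 40-kb and 36-kb sites and the arcuate summits of the 10-kb site all lie on the downstream side. The arcuate summits of the 40-kb and 36-kb sites lie on both sides.

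Most elements of the window were not under a region. The whole 330272 bp window held 34 matches with at most 2 mismatches, of which 3 were under a region and 31 were not. The gene body held 15 of the 34. A single match had no mismatch, and it was not under a region in any library. This perfect element lay at 16848128 to 16848142, within the span of the noncoding gene Gm36495 and 57.336 kb from the nearest region.
perfect element: AGGTCAtgaTGACCT

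Other motifs were searched within 100 bp of each region's median summit, also where this reached past the listed span, and were sparse. An AP-1 motif (TGANTCA), the binding sequence of Fos and Jun dimers, was found at the 10-kb site, 91 bp from the median summit, and 6.34% of all merged regions held it. An Sp1/KLF motif (GGGCGG) was found 96 bp from the median summit of the 36.6-kb region, outside its listed span. Of all regions, 19.9% held this motif in the same window. Neither forkhead motif (TGTTTAC or TGTTTGC, 4.84% of all regions) nor the NFI palindrome (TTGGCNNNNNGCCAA, 0.0372%) was found at any of the 6 regions. The exact half-site AGGTCA was found at the 48.1-kb, 40-kb, 36.6-kb and 10-kb regions but not at the 47.7-kb and 36-kb regions, and 33.9% of all regions held it. At the 36.6-kb region this half-site also lay outside the listed span. The half-site's core GGTCA was found at all 6 regions and in 57.0% of all regions. All motifs were read on both strands, and a half-site inside a full element was counted as well.

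The 40-kb site was among the strongest of all sites in each nucleus. It spanned 1063 bp, from 16760091 to 16761153. Its fold enrichment, the ratio of reads at the summit over the local background, was 31.3, 27.8, 25.3 and 22.2 in arcuate libraries 1 to 4. In AVPV libraries 1 to 4 it was 35.0, 26.6, 31.6 and 38.6. The ranges of the nuclei overlapped, and the -log10 q-value ran from 76.1 to 174 in arcuate libraries and from 102 to 173 in AVPV libraries.

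Since the background can differ between lists, a peak was also ranked among the peaks of its own library. Such ranking does not remove a difference in the local background of a site, which was not examined. The percentile is the percent of a list's peaks whose fold enrichment was at most that of the peak. At the 40-kb site it was 99.2, 98.6, 97.9 and 97.1 in the arcuate and 99.1, 98.1, 98.6 and 99.4 in the AVPV. The peak stood between rank 35 and rank 100 from the top in the arcuate lists and between rank 19 and rank 49 in the AVPV lists. By mean percentile over the 8 libraries, 98.5, it ranked 43 of the 1089 regions with a peak in all 8 libraries. The means were 98.2 ± 0.879 for the arcuate and 98.8 ± 0.577 for the AVPV (SD, n = 4 each). The difference of -0.588 points lay within the scatter of the libraries (two-sided exact permutation, p = 0.314, also 0.314 after Benjamini-Hochberg adjustment over the 2 sites with a peak in all 8 libraries).

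The 36-kb site was a strong peak in the arcuate and a middling peak in the AVPV. It spanned 672 bp, from 16764613 to 16765284. Its fold enrichment was 15.7, 17.0, 19.3 and 13.2 in arcuate libraries 1 to 4. In the AVPV libraries it was 6.27, 6.12, 6.15 and 5.12. The lowest arcuate value was above the highest AVPV value, and the means were 16.3 ± 2.56 and 5.91 ± 0.532 (SD, n = 4 each). The -log10 q-value was 31.1 to 59.2 for arcuate peaks and 6.86 to 11.7 for AVPV peaks.

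Within the lists, the percentile of the 36-kb site was 93.9, 95.6, 96.3 and 91.5 in the arcuate and 48.8, 49.6, 51.4 and 28.9 in the AVPV. The peak thus ranked between 122 and 295 from the top of the arcuate lists and between 1212 and 2176 in the AVPV lists, close to the middle of 3 lists and in the lower part of the list of AVPV library 4. The means were 94.3 ± 2.13 and 44.7 ± 10.6 (SD, n = 4 each), a difference of 49.6 points in favour of the arcuate. The groups did not overlap (two-sided exact permutation, p = 0.0286, the lower limit for groups of 4). After Benjamini-Hochberg adjustment over the 2 sites this value was 0.0571, so the difference did not pass 0.05 once adjusted. Of the 1089 regions with a peak in all 8 libraries, 14.5% had percentiles that did not overlap with the arcuate higher. Ordered by the signed difference, arcuate minus AVPV, from the highest down, the 36-kb site ranked 8 of 1089 and the 40-kb site 688. Regions that differed in favour of the AVPV came last in this order, however large their difference. The median signed difference over all 1089 was 1.93 points.

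**Figure D2:**
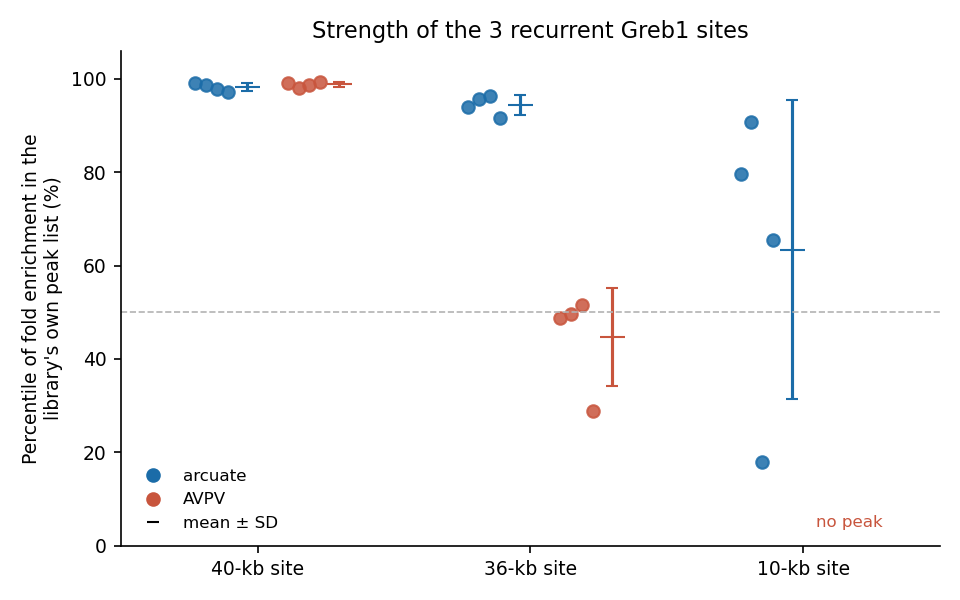
Percentile of fold enrichment within the library's own peak list (%) at the 3 recurrent sites, with 1 point per library and the mean ± SD of 4 libraries beside the points. The 40-kb points lie at 97.1 or above in both nuclei, the 36-kb points at 91.5 or above in the arcuate and at 51.4 or below in the AVPV, and the 10-kb site has arcuate points only.

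**Figure D3:**
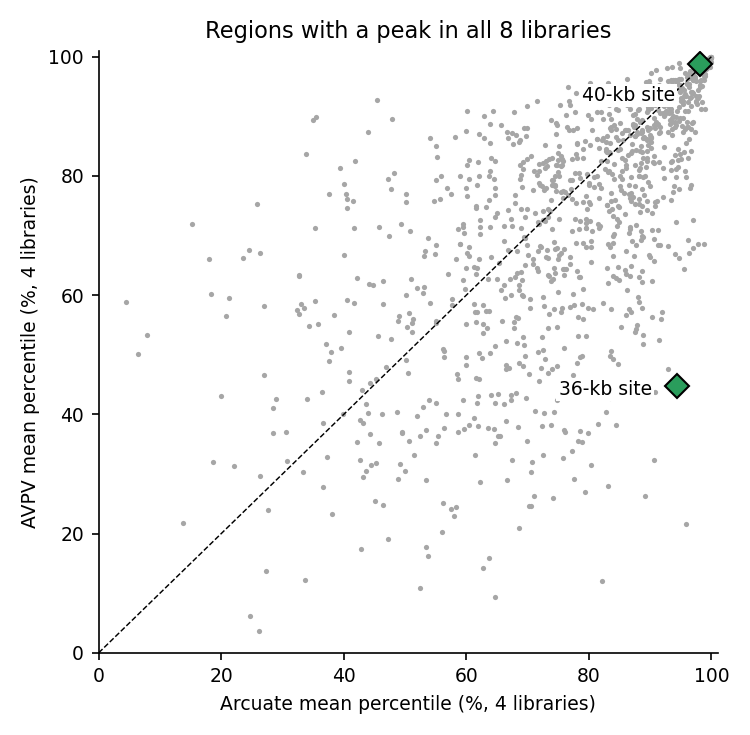
Mean percentile in the arcuate against that in the AVPV (%, 4 libraries each) for the 1089 regions with a peak in all 8 libraries, with the dashed line marking equality. The 40-kb site lies at the top right corner and the 36-kb site far below the line.

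Within each library, the 40-kb site was stronger than the 36-kb site, and the 36-kb site was closer to it in the arcuate than in the AVPV. The ratio of fold enrichment, 40-kb over 36-kb, was 1.99, 1.64, 1.31 and 1.68 in arcuate libraries 1 to 4. In AVPV libraries 1 to 4 it was 5.59, 4.34, 5.14 and 7.53. Every AVPV ratio was above every arcuate ratio, and both peaks of a ratio come from the same library and list.

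The ratio was above 1 in 8 of 8 libraries, with a mean log2 ratio of 1.59 ± 0.978 (SD, n = 8; exact two-sided sign-flip permutation test, p = 0.00781, the lower limit for 8 libraries). The mean log2 ratio was 0.71 ± 0.25 in the arcuate and 2.47 ± 0.33 in the AVPV (SD, n = 4 each), which are ratios of 1.64 and 5.54. The difference of -1.76 on the log2 scale, arcuate minus AVPV, exceeded the variation among libraries of a nucleus (two-sided exact permutation, p = 0.0286, again the lower limit). After Benjamini-Hochberg adjustment over the 10 main permutation tests of the window, this value and the sign-flip value were both 0.0714. Neither passed 0.05 over these 10. Tests of fold enrichment in other forms at the 2 sites were not among these 10. The percentile and the ratio rest on the same AVPV peaks at the 36-kb site and are not independent results.

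Pairs as close as these are few in the data. Among the regions with a peak in all 8 libraries, 15 pairs of neighbours had summits within 10 kb of each other, the Greb1 pair included. In 33.3% of them (5 pairs) the log2 ratio did not overlap between the nuclei, in either direction. The Greb1 pair had the largest difference of the 15, and the median size over the 15 was 0.70.

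**Figure D4:**
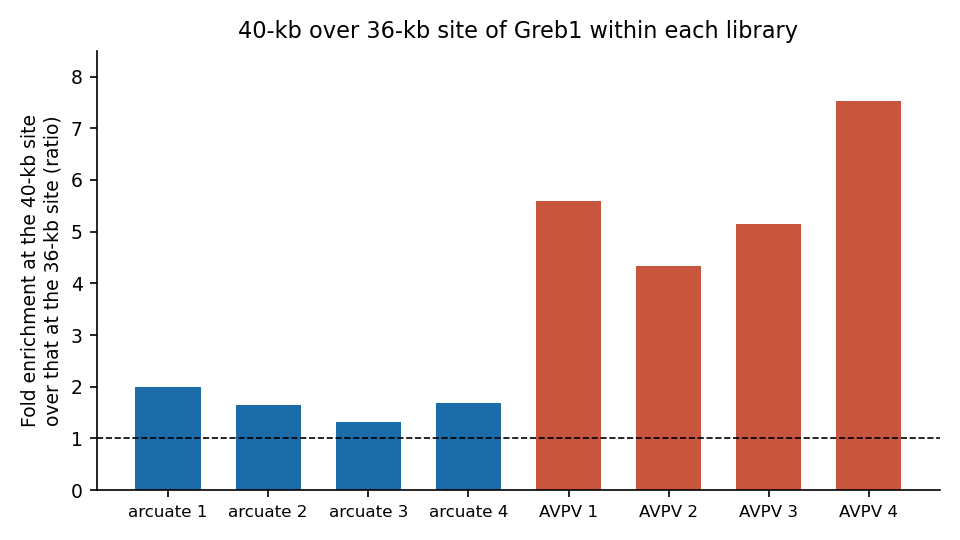
Fold enrichment at the 40-kb site divided by that at the 36-kb site, with 1 bar per library and the dashed line at a ratio of 1. The 4 arcuate bars lie between 1.31 and 1.99 and the 4 AVPV bars between 4.34 and 7.53.

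The summits of the pair lay close together in the 8 libraries. The 8 summits spread over 39 bp at the 40-kb site and 76 bp at the 36-kb site, and the median spread over the 1089 regions was 82 bp. The mean summit differed between nuclei by 3.5 bp at the 40-kb site (two-sided exact permutation, p = 0.83) and by 35.5 bp at the 36-kb site (two-sided exact permutation, p = 0.0857, adjusted over the 2 sites 0.171). The distance between the 2 summits was 4427, 4398, 4392 and 4327 bp in arcuate libraries 1 to 4. In AVPV libraries 1 to 4 it was 4346, 4373, 4350 and 4347 bp. The ranges overlapped, and the SD of the distances was 42.2 bp in the arcuate and 12.8 bp in the AVPV (n = 4 each). The mean difference of 32 bp did not pass the test (two-sided exact permutation, p = 0.229). Without arcuate library 4 it was 51.7 bp (exact permutation, p = 0.0286, the lower limit for 3 against 4). Without any other library it did not pass (exact permutation, p up to 0.429). Taken from the centres of the peaks in place of their summits, the difference in distance was 66 bp (exact permutation, p = 0.0571) and that in position at the 36-kb site was 67.2 bp (exact permutation, adjusted over the 2 sites, p = 0.0571).

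Peak width also separated the nuclei at the 36-kb site. Its peaks were 546, 672, 589 and 483 bp wide in the arcuate and 226, 233, 438 and 257 bp wide in the AVPV. The groups did not overlap, with a mean difference of 284 bp (two-sided exact permutation, p = 0.0286, adjusted over the 2 sites 0.0571). Of the 1089 regions, 4.78% had non-overlapping widths with the arcuate wider. At the 40-kb site the widths were 795, 825, 943 and 988 bp in the arcuate and 558, 543, 882 and 688 bp in the AVPV, which overlapped (mean difference 220 bp, two-sided exact permutation, p = 0.0857). Without AVPV library 3 the differences were 334 and 291 bp at the 36-kb and 40-kb sites. Both passed after adjustment over the 2 sites (exact permutation, p = 0.0286, the lower limit for 3 against 4). Without any other library neither passed (exact permutation, adjusted p up to 0.114 and 0.143). Fold enrichment was also higher in the arcuate at the 36-kb site, and its part in the difference of width was not tested.

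The 10-kb site was listed in the arcuate only. It spanned 373 bp, from 16790420 to 16790792, and its median summit was 25.707 kb upstream of that of the 36-kb site. Its fold enrichment was 9.24, 12.6, 4.76 and 6.85 in arcuate libraries 1 to 4, and its percentile was 79.5, 90.6, 17.9 and 65.4. It was a strong peak in library 2 and a weak one in library 3, with a mean percentile of 63.4 ± 32.0 (SD, n = 4). Its peaks were 277 to 347 bp wide and their summits fell within 30 bp of each other.

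The 10-kb site had a peak in 4 of 4 arcuate libraries and 0 of 4 AVPV libraries. This is a description, since the site became a region through its arcuate peaks, and the same pattern was found at 2.13% of all merged regions, as given above. A site without a listed peak is not shown to be unbound, since the lists hold only peaks at a false discovery rate of 5%. The fold enrichment at the 5th percentile of the AVPV lists was 3.75 to 3.95. This describes whole lists and does not give the lowest value that could be listed at this site. Whether AVPV binding here fell below the threshold was not tested. The arcuate order of the 3 sites was the same in all 4 libraries, with the 36-kb site 1.70, 1.35, 4.06 and 1.93 times as enriched as the 10-kb site.

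**Figure D5:**
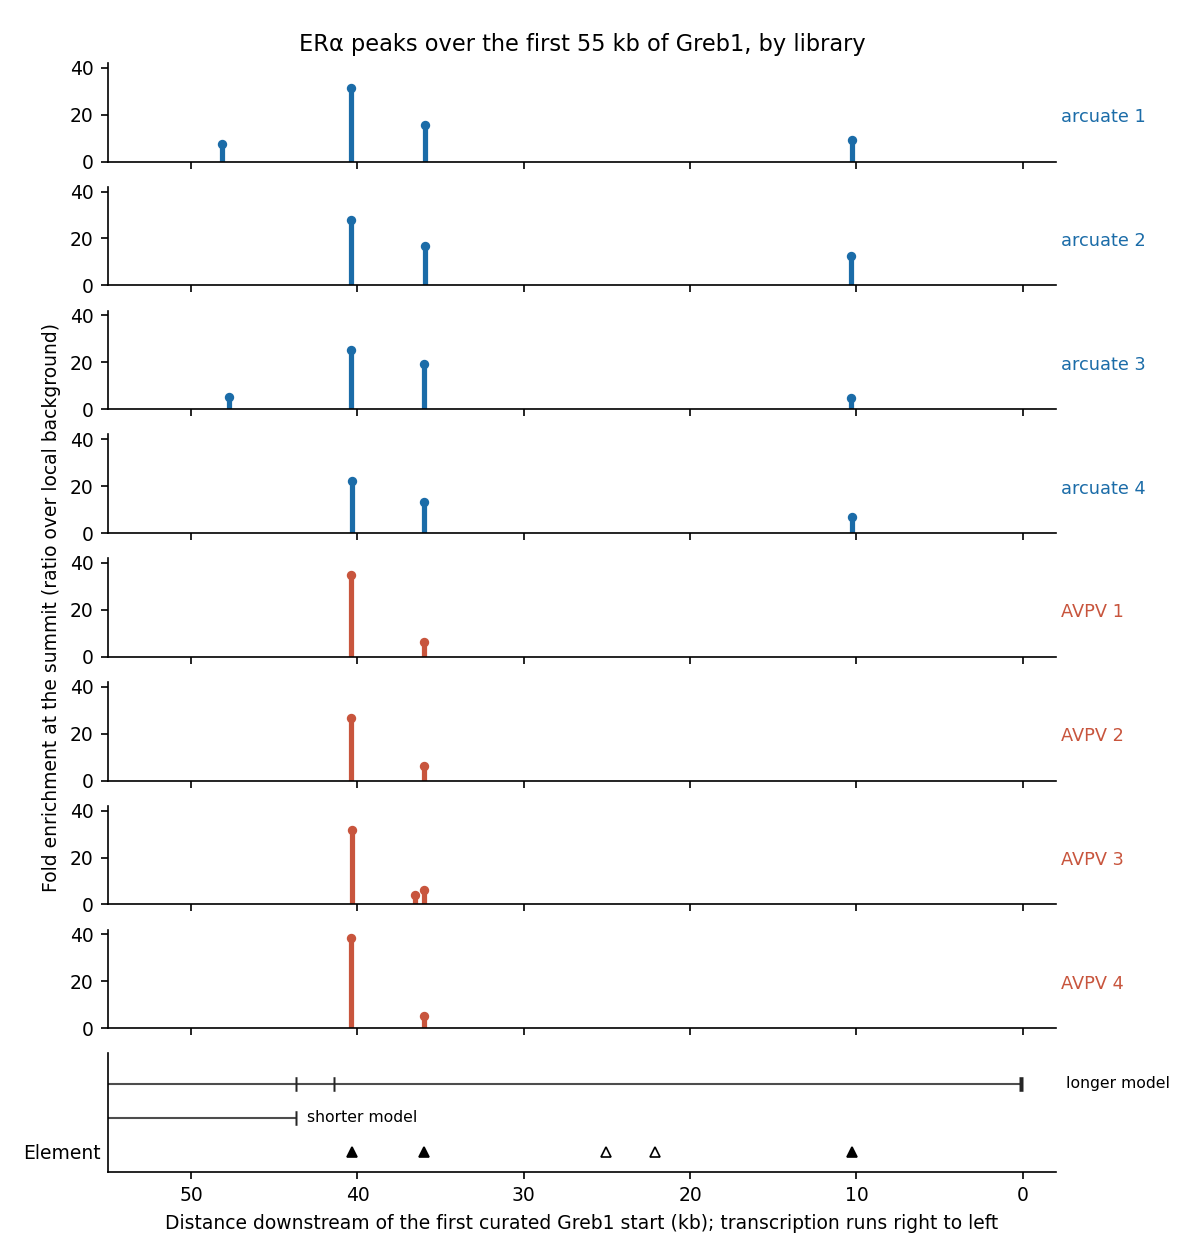
Fold enrichment at each summit (ratio over local background) along the first 55 kb of Greb1, with 1 row per library, the 2 curated models below and triangles for elements with at most 2 mismatches (filled under a region, open elsewhere). All 8 libraries have the 40-kb and 36-kb peaks, the 4 arcuate libraries have the 10-kb peak, and 3 of the 5 elements shown are under a region.

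The remaining 3 regions were single peaks of single libraries. The 48.1-kb region, from 16752608 to 16752927, was listed in arcuate library 1 at a fold enrichment of 7.44 (percentile 65.8). The 47.7-kb region, from 16753052 to 16753298, was listed in arcuate library 3 at 5.21 (percentile 29.9). Both lay in intron 3 of the longer model, and their summits were 410 bp apart. The nearest curated start was 4.483 and 4.073 kb away, but the summits were 579 and 169 bp downstream of the start of a predicted RefSeq model at 16753335. The 47.7-kb summit fell within an exon of 1 predicted model.

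The 36.6-kb region, from 16764302 to 16764496, was listed in AVPV library 3 at a fold enrichment of 3.98 (percentile 7.62), with its summit 568 bp downstream of that of the 36-kb site. It was the weakest of the 23 peaks by percentile. AVPV library 3 also had the widest AVPV peak at the 36-kb site. These 3 regions have no replicate, and as given above 41.5% of all merged regions were of this kind.

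The number of peaks in the window was 4, 3, 4 and 3 in the arcuate and 2, 2, 3 and 2 in the AVPV. The means were 3.5 ± 0.577 and 2.25 ± 0.5 (SD, n = 4 each), and the 1.25 peaks between them did not pass the test (two-sided exact permutation, p = 0.0857). Without AVPV library 3 the difference was 1.5 peaks (exact permutation, p = 0.0286, the lower limit for 3 against 4). Without any other library it did not pass (exact permutation, p up to 0.171). The lists differed in length, so these counts were also taken as shares of each list. The shares were 0.0981, 0.0775, 0.123 and 0.0865% in arcuate libraries 1 to 4. In AVPV libraries 1 to 4 they were 0.0845, 0.0787, 0.0896 and 0.0654%, so the ranges of the nuclei overlapped. The difference in share was not tested. All 6 regions lay within the Greb1 span. The other 5 annotated genes that overlap the window, Lpin1, Ntsr2, E2f6, Gm36495 and Rock2, held 0 regions, and the nearest of them to a region was E2f6 at 20.1 kb.

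The surroundings of the locus held no other region for some distance on either side. Past the window, the nearest merged regions were 198.369 kb from the gene body on the 3' side and 199.345 kb on the 5' side, each a peak of 1 library. The nearest regions with a peak in all 8 libraries were 3420.89 and 295.879 kb away. Measured from the outermost regions of Greb1, the gaps to the next regions were 280 kb on the 3' side and 209 kb on the 5' side, against a median gap of 131 kb between neighbouring regions on all chromosomes. Gaps at least as long made up 30.9% and 38.2% of the total, so such spacing was common. When the chromosomes were tiled at the length of the window, 3975 tiles held at least 1 region, with a median of 2, and 133 of them (3.35%) held 6 or more, the highest number being 46.

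Greb1 was compared with the other genes that hold several regions with a peak in all 8 libraries. There were 22 other protein-coding genes whose span held at least 2 regions with a peak in all 8 libraries. Likeness was the root mean square difference over 16 values, the percentiles of the gene's strongest and second strongest such region in the 8 libraries. The closest gene was Pak3, a p21-activated kinase, at 11.3 percentile points, against a median of 20.5 over the 22 genes. Its second region had a mean percentile of 74.7 in the arcuate and 42.4 in the AVPV.

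The next genes were Aak1, a kinase of clathrin-mediated endocytosis, at 14.0 points, and Psmc2, an ATPase subunit of the proteasome, at 15.0. They were followed by Lrp1b, a receptor of the LDL receptor family, at 15.3 and Prkce, a protein kinase C, at 16.2. Their second regions had arcuate and AVPV mean percentiles of 84.5 and 62.9 for Aak1, 88.7 and 69.9 for Psmc2, 96.9 and 68.0 for Lrp1b, and 83.1 and 68.6 for Prkce. The genes were picked for likeness to Greb1, so that shared direction is a description and not a result.

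Greb1 was also set beside other genes of the estrogen response. A list of 25 genes tied to estrogen action in breast or uterus, Esr1 among them, was searched within 100 kb of each gene. All 25 matched the annotation. Of them, 4 (16%) had a region with a peak in all 8 libraries, against 18.3% of 21887 protein-coding genes, a like share. None of the 4 had a mean percentile above that of the Greb1 40-kb site. The highest were Nrip1, a corepressor of nuclear receptors, at 96.8, Xbp1, a transcription factor of the unfolded protein response, at 92.8, and Pgr, the progesterone receptor, at 87.7. Nrip1 had 2 such regions and Pgr had 3.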

How the data were processed

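ERα ChIP-seq peak lists of 8 libraries, 4 of the arcuate and 4 of the AVPV, were analysed. Per the labels, the authors fixed tissue in 1% formaldehyde for 15 min, sequenced 75-nt single-end reads, aligned them to mm10 with Bowtie2 2.5.0 and called peaks per library with MACS2 2.2.7.1. Read depth was not analysed here. The deposited lists give each peak a fold enrichment (a ratio to local background), -log10 values of p-value and q-value, and a score that was not used. The lowest -log10 q-value in a deposited list was 1.31 to 1.41, and the median fold enrichment was 5.77 to 6.28.

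Peaks sharing at least 1 bp were merged, and a call in a nucleus needed a peak in 2 or more of its 4 libraries. Annotation and sequence were RefSeq GRCm38.p6. One value per library was tested by exact permutation. Named genes were Greb1, all genes of the window, the 5 most like Greb1, and Esr1 and the 3 highest of the 25 listed genes. These members, lists and tests were chosen with earlier results of these data known. Merging and the search for elements were tested on simulated data. No 2 libraries shared an identical peak. Deviations of same-numbered libraries of the nuclei had correlations of -0.209 to 0.0492, against -0.216 to 0.238 for other numbers. These values cannot show whether same-numbered libraries came from the same animals. The main tests took the libraries as unpaired. Alternatives were other windows, thresholds, list lengths, measures, merging rules and motif limits, a replicate block, and the omission of each library in turn. Python 3.11.15, numpy 2.4.6, scipy 1.17.1 and matplotlib 3.10.9 were used.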

Additional observations from a re-analysis of the deposited data

Results flagged for a closer look

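The difference between the nuclei in the log2 ratio of the 40-kb over the 36-kb site, -1.76, passed its own exact permutation test before adjustment. In 26 groups of 4 libraries, 5 had 1 library far from the others by Dixon's criterion at the 95% level, where chance gives about 1 in 20 for a single group. The groups shared libraries and peaks, so the count of 5 cannot be read against that share. Where the other libraries tie, as in the number of peaks, any differing library is flagged. At the 36-kb site, AVPV library 4 was low in fold enrichment (5.12) and in percentile (28.9), and AVPV library 3 had a wide peak (438 bp). The distance between the 2 summits was long in AVPV library 2 (4373 bp), and AVPV library 3 had 3 peaks in the window against 2 in each of the others.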

How the results depend on the processing

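The percentile of the 36-kb site and the ratio of the 2 sites kept their direction under every alternative run. The ratio difference stayed between -1.87 and -1.61 on the log2 scale when any 1 library was left out. The exact permutation p was 0.0286 each time, the lower limit for 3 against 4. Groups that do not overlap give this value whichever library is left out, so its return adds no support. With a replicate block over 4 pairs, which cannot go below 0.125, the ratio difference was -1.76 (exact sign-flip p = 0.125). No other call changed under the block. The percentile difference at the 36-kb site was 44.4 to 51.9 points with any 1 library left out, and at the 40-kb site -0.906 to -0.232. The latter turned to 0.0673 with peaks ranked by p-value or q-value, which was no call either way (exact permutation p = 0.914, adjusted over the 2 sites).

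With peaks of fold enrichment above 5, or of -log10 q of at least 5, the difference in the number of peaks was 1.25 and passed the test (exact permutation p = 0.0286 for each, against 0.143 with lists of equal length). With any 1 library left out it was 1.08 to 1.5, passing only without AVPV library 3 at 1.5 (exact permutation p = 0.0286). The width difference was 178 to 291 bp at the 40-kb site and 251 to 334 bp at the 36-kb site. It passed only without AVPV library 3, at 291 and 334 bp (exact permutation p = 0.0286 for each, adjusted over the 2 sites). The difference in summit distance was 18.3 to 51.7 bp and passed only without arcuate library 4, at 51.7 bp (exact permutation p = 0.0286). The summit difference was -4.42 to 8.58 bp at the 40-kb site and 26.9 to 47.2 bp at the 36-kb site. When a peak in 1 of 4 libraries was enough for a call, 3 regions instead of 1 were called in the arcuate only and 1 instead of 0 in the AVPV only. With at most 1 mismatch, 1 site instead of 3 held an element. The causes of these changes were not tested. The lists hold called peaks and no reads, so binding below the threshold cannot be seen.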
